A study of Mus musculus with 15 samples.

Results

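Chemokine transcripts were followed in the mouse auditory nerve after loud noise, for 10 genes: Ccl2, Ccl3, Ccl4, Ccl7, Ccl12, Cxcl1, Cxcl10, Cxcl12, Cxcl14 and Cx3cl1. They were taken as every probe set that the platform annotation pairs with 1 of these symbols alone, which gave 18 of the 34945 probe sets with a single gene, and 10 of 18193 genes. A probe set is a group of short array probes for 1 transcript, and its value is a log2 intensity, so that a difference of 1 is a doubling. Where a gene had several, the one with the highest mean over all arrays is called its main probe set, and the others are described beside it.

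The animals were CBA/CaJ mice aged 5 to 12 weeks, and the design asks how transcripts of the nerve differ from control at 4 times after noise. Each of the 5 groups had 3 arrays, and each array held RNA pooled from both ears of a single animal, so the arrays are separate animals. Controls heard no noise and were all female. The other groups heard octave-band noise (8 to 16 kHz, 106 dB SPL) for 2 hours. Animals taken immediately afterwards were 2 females and 1 male (replicate 3), those taken at 1 day were all male, and those taken at 7 and at 14 days were 2 females and 1 male (replicate 1 in each). The dissected piece was the modiolus, the core of the cochlea that houses the nerve, and it holds other cells besides neurons and glia.

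Chemokines are small secreted proteins that bind G-protein-coupled receptors on leukocytes and other cells and direct where these cells move. CC chemokines such as Ccl2, Ccl7 and Ccl12 act mainly on monocytes and macrophages, Cxcl1 draws neutrophils, and Cxcl10 is induced by interferons and draws activated T cells. Cxcl12, Cxcl14 and Cx3cl1 are made in many resting tissues, and in nervous tissue Cx3cl1 is a neuronal ligand for a receptor of microglia and macrophages.

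Promoter sequence was read for the members, since inducible and resting chemokines are known to differ in the factors that bind there. The promoter set used (RefSeq, GRCm38.p6) held 7 of the 10 genes: Ccl3, Ccl12, Cxcl1, Cxcl10, Cxcl12, Cxcl14 and Cx3cl1. It held no promoter for Ccl2, Ccl4 and Ccl7, which were therefore not read. The 250 bases before the start site are printed 5′ to 3′ on the gene's own strand for the 2 genes with the largest rise at 1 day (Ccl12 and Cxcl10), for the resting chemokine that also rose (Cxcl12) and for Cxcl1. Capitals mark matches on either strand to the NF-κB motif, to the interferon response core GAAANNGAAA and to the AP-1 motif TGANTCA. The windows are chr11:82101595-82101844 for Ccl12, chr5:92348890-92349139 on the minus strand for Cxcl10, chr6:117168285-117168534 for Cxcl12 and chr5:90890995-90891244 for Cxcl1.
Ccl12: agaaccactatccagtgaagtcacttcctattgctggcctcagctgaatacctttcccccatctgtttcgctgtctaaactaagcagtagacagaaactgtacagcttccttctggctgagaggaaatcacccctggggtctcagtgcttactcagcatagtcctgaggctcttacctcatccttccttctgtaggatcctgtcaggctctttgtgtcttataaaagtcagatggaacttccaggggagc
Cxcl10: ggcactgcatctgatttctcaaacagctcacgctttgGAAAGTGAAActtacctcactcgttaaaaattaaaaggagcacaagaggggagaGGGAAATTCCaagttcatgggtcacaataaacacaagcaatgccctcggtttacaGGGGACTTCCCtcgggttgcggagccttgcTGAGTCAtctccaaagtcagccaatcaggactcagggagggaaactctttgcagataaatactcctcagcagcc
Cxcl12: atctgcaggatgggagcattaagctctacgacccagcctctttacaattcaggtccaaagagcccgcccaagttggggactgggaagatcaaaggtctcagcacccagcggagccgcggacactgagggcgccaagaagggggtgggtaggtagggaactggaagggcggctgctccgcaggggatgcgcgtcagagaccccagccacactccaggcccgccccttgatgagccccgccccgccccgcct
Cxcl1: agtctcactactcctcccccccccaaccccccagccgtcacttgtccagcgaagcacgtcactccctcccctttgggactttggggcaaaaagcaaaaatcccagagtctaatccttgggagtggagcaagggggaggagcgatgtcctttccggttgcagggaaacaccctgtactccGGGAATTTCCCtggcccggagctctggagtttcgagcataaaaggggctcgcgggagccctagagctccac
Cxcl10 held all 3 motifs: a κB match 159 to 150 bases before the start, 2 overlapping κB matches at 104 to 95 and 103 to 94, the interferon core 213 to 204 bases before it and the AP-1 match at 74 to 68. Cxcl1 held 1 κB site read on both strands, at 71 to 62 and 70 to 61 bases before the start. Ccl12 and Cxcl12 held none of the 3, which says only that these letters are not in this window. Cxcl14 held the interferon core. It also held the STAT motif TTCNNNGAA, which the printed promoters lack. Ccl3 and Cx3cl1, not printed, held no match to any of these motifs. Of the 7 members read, 2 held the κB motif, 2 the interferon core, 1 the AP-1 motif and 1 the STAT motif. Among 32851 promoters of this length, 7.25% held the κB motif, 2.98% the interferon core, 6.75% the AP-1 motif and 7.02% the STAT motif. The matches describe letters and are not measured binding.

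Array medians lay between 5.87 and 5.92, and the array number limits the precision, with 10 residual degrees of freedom in the fit. The labelled tissue was checked against its markers: the Schwann cell list (5 of 8 genes measured) had array means between 11.90 and 12.29 and the neuron list (8 genes) between 10.20 and 10.38. A value at or below 4.70, the 25th percentile of the gene means, is called near background here. In the 9 females, 12 of 13 Y-linked probe sets stayed at or below that line, and 1 Sry probe set ran from 5.04 to 5.73, so a probe set can sit above the line without its transcript. By this line, taking group means of the main probe sets, 5 of the 10 chemokines were near background in controls (Ccl2, Ccl3, Ccl7, Ccl12 and Cxcl10). Only Ccl3 was so in the immediate and in the 1-day group. At 7 days 4 were (Ccl2, Ccl3, Ccl7 and Cxcl10), and at 14 days the same 5 as in controls. Ccl3 was near background in all 5 groups, and Ccl4, Cxcl1, Cxcl12, Cxcl14 and Cx3cl1 in none. A dimmer probe set of Cxcl1 was near background in every group but the immediate one, with means of 3.71 in controls and 5.20 immediately. Changes of dim genes are compressed on arrays, so a fold change that starts near background is likely to be understated.

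**Figure D1:**
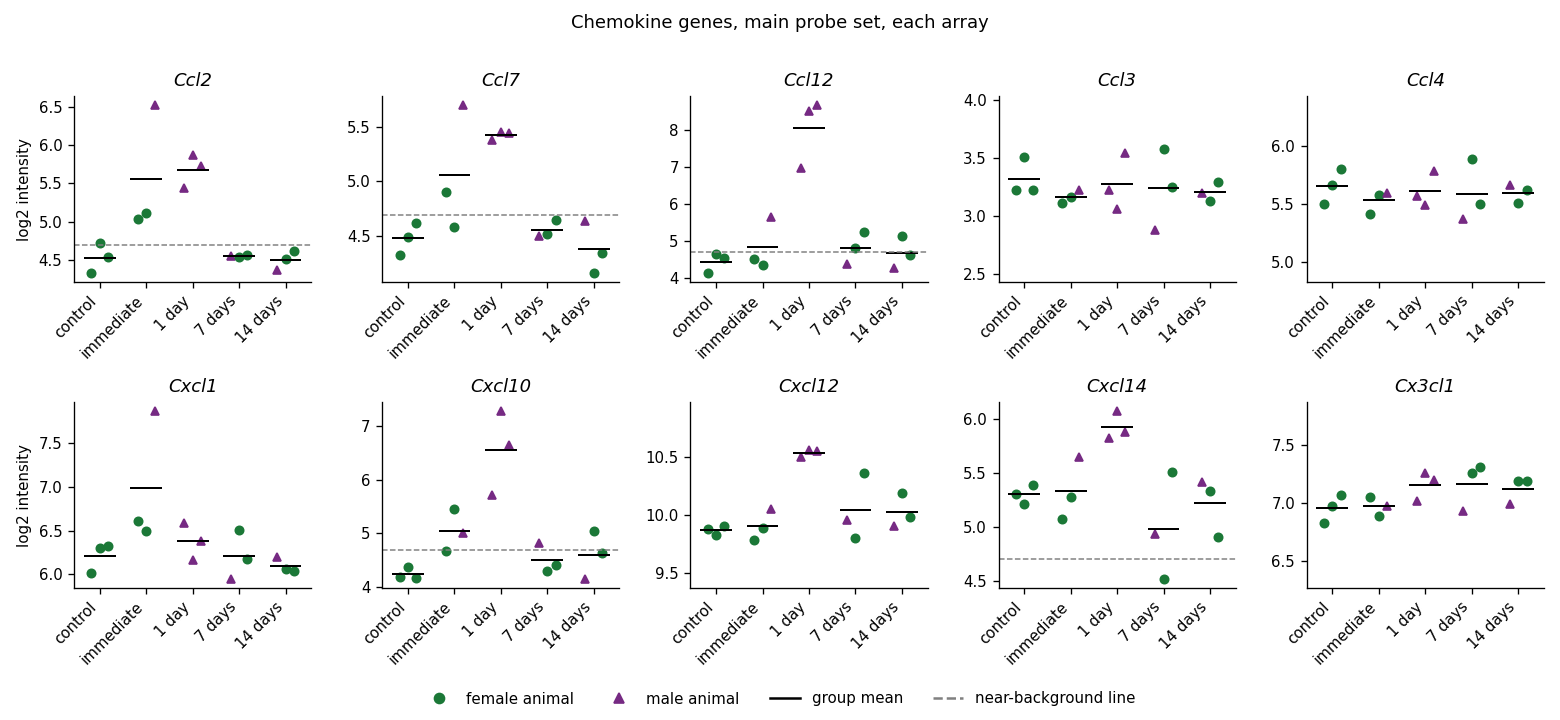
Log2 intensity of the main probe set of each chemokine on every array (circles, female animals; triangles, male animals; bar, mean of 3 arrays), with each panel on its own scale and the near-background line (4.70) where the scale reaches it. Ccl12, Cxcl10 and Cxcl12 stand highest at 1 day, and 1 immediate array, the male, stands above the others for Ccl2, Ccl7, Ccl12 and Cxcl1.

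At 1 day 5 of the 10 chemokines were higher than in controls: Ccl12 12.3-fold, Cxcl10 4.95-fold, Ccl2 2.22-fold, Ccl7 1.92-fold and Cxcl12 1.59-fold (limma, adjusted over all probe sets). The other 5 did not pass, and 0 were lower. Of all 34945 probe sets, 0.838% were called higher in this comparison and 1.5% in either direction. The members' median difference was 0.65, and the median over all probe sets was -0.01. Immediately after noise 0 of the 10 passed, and 0.661% of all probe sets were called. At an unadjusted p under 0.05 stood 4 of the 10 (Ccl2, Ccl7, Cxcl1 and Cxcl10) and 13.8% of all probe sets. The members' median difference was 0.22 there, beside -0.01 over all probe sets. At 7 and at 14 days 0 of 10 passed, where 0.0458% and 0% of all probe sets were called. At an unadjusted p under 0.05 stood 0 of 10 at both times, beside 10.6% and 7.95% of all probe sets. The 4 comparisons share the 3 control arrays. Over the whole course the moderated F test called Ccl12, Cxcl10, Cxcl12, Ccl2 and Ccl7, 5 of 10 genes, where it called 5.13% of all probe sets.

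**Figure D2:**
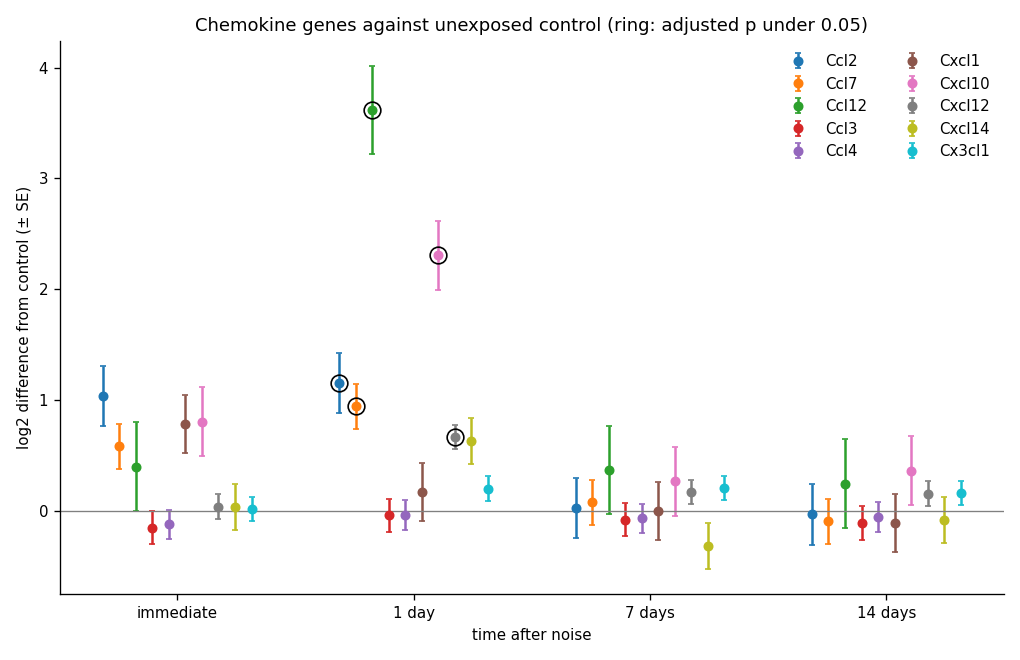
Difference from control (log2) of the main probe set of each chemokine at the 4 times after noise, with standard errors from the limma fit; rings mark adjusted p under 0.05. The only rings are at 1 day, on Ccl12 (3.62), Cxcl10 (2.31), Ccl2 (1.15), Ccl7 (0.94) and Cxcl12 (0.67).

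Ccl12 encodes a mouse ligand of the monocyte receptor Ccr2. Its control arrays read 4.13, 4.66 and 4.55, the immediate arrays 4.51, 4.37 and 5.65, and the 1-day arrays 6.98, 8.52 and 8.69. At 7 days they read 4.38, 4.81 and 5.25 and at 14 days 4.28, 5.15 and 4.64. All 3 arrays at 1 day lay above every other array of the series. The mean rose from 4.45 ± 0.28 (SD, n = 3) in controls to 8.06 ± 0.94 at 1 day, a difference of 3.62 ± 0.40 (SE; adjusted p = 0.000612; 95% interval 2.77 to 4.47). Immediately after noise the difference was 0.40 ± 0.40 and did not pass (adjusted p = 0.720).

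Ccl2 and Ccl7, monocyte attractants that bind the same receptor, lie beside each other on chromosome 11 in the cluster that also holds Ccl11 and Ccl12. For Ccl2 the controls read 4.32, 4.72 and 4.54, the immediate arrays 5.04, 5.11 and 6.53, and the 1-day arrays 5.44, 5.87 and 5.73. All noise arrays up to 1 day lay above all controls, and the immediate male stood more than 1 above the females of its group. At 7 days the values were 4.55, 4.54 and 4.56 and at 14 days 4.36, 4.51 and 4.61, inside the control range. Ccl2 rose by 1.15 ± 0.27 at 1 day (adjusted p = 0.0460; 95% interval 0.58 to 1.73). Its immediate difference was of like size, 1.03 ± 0.27 (2.05-fold; 95% interval 0.46 to 1.61), and did not pass (adjusted p = 0.0986).

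Ccl7 read 4.33, 4.49 and 4.62 in controls, 4.90, 4.58 and 5.70 immediately after noise, and 5.38, 5.45 and 5.44 at 1 day. The 1-day arrays were tightly grouped and clear of the controls, while 1 immediate array fell within the control range. At 7 and 14 days the 6 values ran from 4.16 to 4.65. The 1-day difference was 0.94 ± 0.20 (adjusted p = 0.0303; 95% interval 0.51 to 1.38) and the immediate one 0.58 ± 0.20 (adjusted p = 0.214). The calls of Ccl2 and Ccl7 at 1 day were the least firm of the 5. Ccl2 lost its call in 13 of 25 alternative settings, among them leaving out any 1 control, 1-day replicate 2 or 3, 7-day replicate 1 or 2 or any 14-day array (adjusted p up to 0.201). Ccl7 lost it in 7 of 25, among them leaving out any 1 control or any 1 array at 1 day (adjusted p up to 0.127).

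Cxcl10, the interferon-induced ligand of Cxcr3, read 4.18, 4.38 and 4.17 in controls, 4.68, 5.46 and 5.00 immediately after noise, and 5.71, 7.29 and 6.65 at 1 day. The groups followed one another without overlap: every immediate array lay above the controls, and every 1-day array above the immediate ones. At 7 days the arrays read 4.82, 4.30 and 4.41 and at 14 days 4.14, 5.04 and 4.63, overlapping the controls. The immediate difference was 0.80 ± 0.31 (95% interval 0.14 to 1.46; adjusted p = 0.258), and the 1-day difference was 2.31 ± 0.31 (95% interval 1.65 to 2.97; adjusted p = 0.00186). In each fit that left out 1 array, the 1-day differences of Ccl12 (3.30 to 4.16) and Cxcl10 (1.94 to 2.73) still passed.

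Cxcl12, which holds stem cells and leukocytes in tissues through Cxcr4, was far above background in every group. Its main probe set read 9.88, 9.83 and 9.90 in controls, 9.78, 9.89 and 10.05 immediately after noise, and 10.50, 10.56 and 10.55 at 1 day. The 1-day arrays differed by less than 0.1 among themselves and lay above all 12 others. The 7-day arrays read 9.96, 9.80 and 10.36 and the 14-day arrays 9.90, 10.19 and 9.98. The 1-day difference was 0.67 ± 0.11 (adjusted p = 0.00669; 95% interval 0.43 to 0.90). A second bright probe set differed less, by 0.32 ± 0.17 (adjusted p = 0.431), with arrays from 7.85 to 8.67 in controls and 8.40 to 8.74 at 1 day, and the third was near background. The first 2 probe sets correlated with r = 0.47 over the 15 arrays, so the rise of Cxcl12 rests on 1 of its probe sets.

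Cxcl14, a chemokine of epithelia and other resting tissues, read 5.31, 5.21 and 5.39 in controls and 5.83, 6.08 and 5.88 at 1 day. These groups did not overlap, but the difference of 0.63 ± 0.21 (1.54-fold; 95% interval 0.19 to 1.07) did not pass (adjusted p = 0.159). The immediate arrays read 5.07, 5.28 and 5.65, the 7-day arrays 4.93, 4.51 and 5.51 and the 14-day arrays 5.42, 5.33 and 4.91. The second probe set of Cxcl14 stayed between 5.13 and 5.55 in all 15 arrays and differed by 0.09 ± 0.12 at 1 day. It correlated with the main one at r = 0.06 over the 15 arrays.

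Cxcl1 differed most from control immediately after noise. The main probe set read 6.01, 6.30 and 6.32 in controls and 6.61, 6.49 and 7.87 in the immediate group. All 3 immediate arrays lay above the controls, and the male far above the females. At 1 day the values of 6.59, 6.16 and 6.38 overlapped the controls, and the 6 later arrays ran from 5.94 to 6.51. The immediate difference was 0.78 ± 0.26 (1.72-fold; 95% interval 0.23 to 1.33) and did not pass (adjusted p = 0.191). A second, dimmer probe set followed it closely (r = 0.97 over 15 arrays). It read 3.63, 3.64 and 3.87 in controls and 4.64, 4.09 and 6.86 immediately, a difference of 1.48 ± 0.45 that did not pass either (adjusted p = 0.145). The third probe set did not follow them and differed by -0.06 ± 0.16 (adjusted p = 0.908).

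**Figure D3:**
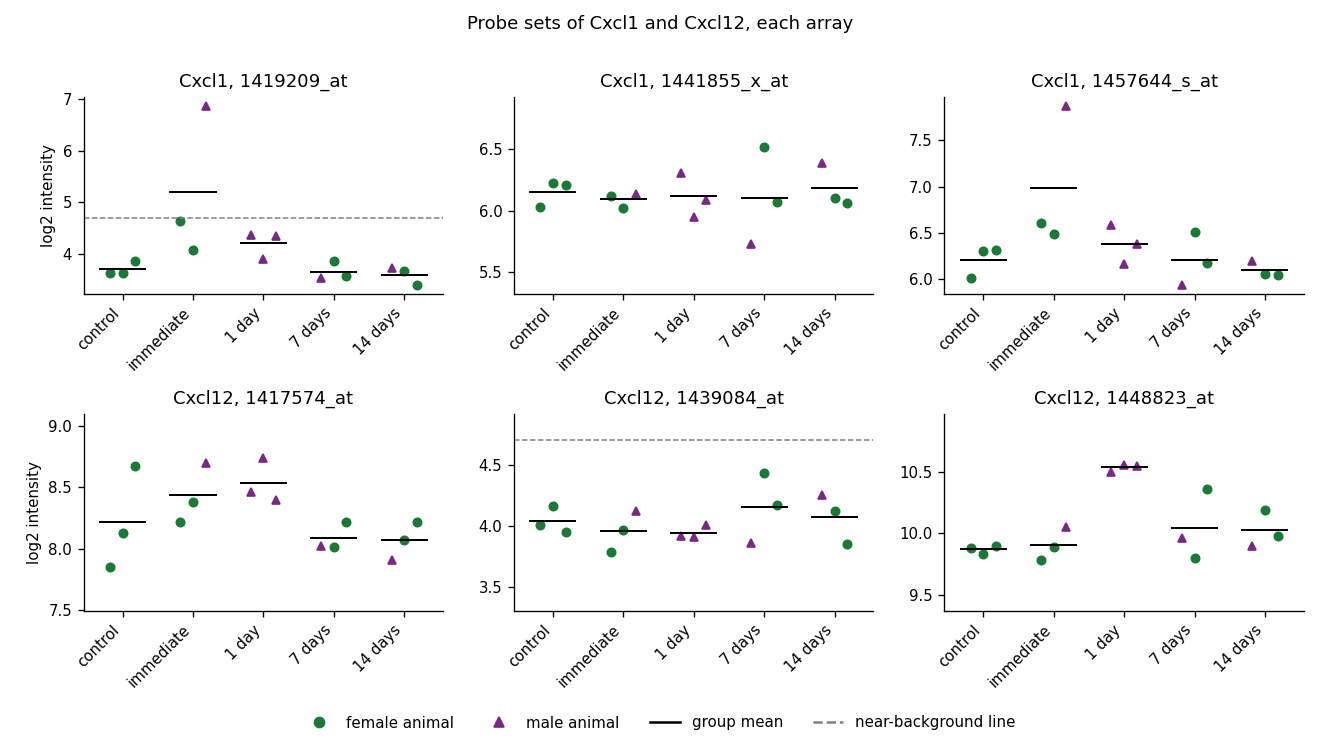
Log2 intensity on every array for the 3 probe sets of Cxcl1 (upper row) and of Cxcl12 (lower row), each panel on its own scale (circles, female animals; triangles, male animals; bar, mean of 3 arrays; dashed line, near-background line where the scale reaches it). The immediate male stands out in 2 of the Cxcl1 panels and not in the third, and of the Cxcl12 panels only the brightest shows the 1-day arrays clear of all others.

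Cx3cl1, the membrane-anchored chemokine of neurons and endothelium, was well above background. Its main probe set ran from 6.83 to 7.07 in controls and from 7.02 to 7.26 at 1 day, and the difference of 0.20 ± 0.11 did not pass (adjusted p = 0.445; 95% interval -0.03 to 0.43). A second bright probe set read 6.78, 6.71 and 6.78 in controls, and all 12 noise arrays, from 6.80 to 7.08, lay above them. Its differences were 0.08 immediately, 0.19 at 1 day, 0.20 at 7 days and 0.19 at 14 days (SE 0.08 each). None passed (adjusted p = 0.732, 0.295, 0.389 and 0.580), though the last 3 had an unadjusted p under 0.05 (0.0309, 0.0222 and 0.0309). The other two probe sets of Cx3cl1 were near background. Ccl3 and Ccl4, made by activated macrophages and microglia, showed no call at any time. Ccl3 ran from 2.88 to 3.58 over all 15 arrays, below the near-background line on each. Ccl4 ran from 5.37 to 5.89, a range that overlaps that of the Sry probe set in females. The gene models of Ccl3 and Ccl4 overlap on chromosome 11 in RefSeq, and their values correlated with r = 0.81. For both genes the 95% interval at 1 day reached from -0.36 to 0.28 (Ccl3) and from -0.32 to 0.24 (Ccl4).

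Between consecutive times, 3 chemokines rose from the immediate group to 1 day: Ccl12 by 3.22 (adjusted p = 0.000442), Cxcl10 by 1.50 (adjusted p = 0.0123) and Cxcl12 by 0.63 (adjusted p = 0.00530). Of all probe sets 2.15% were called higher there and 4.91% in either direction. The second bright probe set of Cxcl12 differed by 0.10 ± 0.17 in this step (adjusted p = 0.827). Ccl2 and Ccl7 did not pass in this step, with differences of 0.12 (95% interval -0.46 to 0.70) and 0.36 (adjusted p = 0.365), and Cxcl1 was lower by -0.61 (adjusted p = 0.203). Without the immediate male, Ccl2 and Ccl7 passed as well, where 1.57% of all probe sets were called in either direction. Cxcl10 no longer passed without immediate replicate 1 or 3 or 1-day replicate 2 (adjusted p up to 0.0594).

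From 1 day to 7 days 6 chemokines fell by their main probe sets, and 3.16% of all probe sets were called lower (5.62% in either direction). The falls were -3.25 for Ccl12 (adjusted p = 0.000509), -2.04 for Cxcl10 (adjusted p = 0.00199), -1.13 for Ccl2 (adjusted p = 0.0246), -0.95 for Cxcl14 (adjusted p = 0.0152), -0.87 for Ccl7 (adjusted p = 0.0220) and -0.50 for Cxcl12 (adjusted p = 0.0171). The second probe set of Cxcl14 differed by 0 ± 0.12 in this step. Of the other Cxcl12 probe sets, the bright one differed by -0.45 ± 0.17 (adjusted p = 0.134). The one near background differed by 0.21 ± 0.14 (adjusted p = 0.445). At 7 days the members' median difference from control was 0.05, beside 0.01 over all probe sets. Intervals stayed wide for the inducible genes, from -0.48 to 1.22 for Ccl12 and from -0.39 to 0.93 for Cxcl10, so a smaller remaining rise was not detectable with 3 arrays. Without 1-day replicate 2 or 7-day replicate 2 only 2 of the 6 falls passed, and without 1-day replicate 3 only 3 did. Of all probe sets 1.58%, 3% and 3.35% were called in these fits, in the same order. From 7 to 14 days 0 of 10 passed, and 0% of all probe sets were called. At an unadjusted p under 0.05 stood 0 of 10 and 2.7% of all probe sets.

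The controls were females and the 1-day animals males, so within these groups the sexes could not be compared. With sex as a term of the same fit, 2 of the 5 rises at 1 day still passed: Ccl12 at 3.64 ± 0.54 (adjusted p = 0.0199) and Cxcl10 at 2.41 ± 0.42 (adjusted p = 0.0418). Cxcl12 kept its size and not its call, at 0.70 ± 0.15 (adjusted p = 0.0764). The differences of Ccl2 and Ccl7 shrank to 0.735 ± 0.33 (adjusted p = 0.416) and 0.52 ± 0.22 (adjusted p = 0.381). Over all probe sets the sex term left 0.12% called at 1 day in place of 1.5%. The sex term was estimated from the immediate, 7-day and 14-day groups, with 1 male in each. The fitted male minus female difference was 0.42 ± 0.22 for Ccl2 and 0.42 ± 0.15 for Ccl7, and -0.02 ± 0.36 for Ccl12 and -0.10 ± 0.28 for Cxcl10. None of these passed (adjusted p = 0.998 for each). For Ccl2 the immediate male read 6.53, against 5.04 and 5.11 in the females. At 7 days the male read 4.55, between the females, and at 14 days 4.36, below both. The fitted Ccl2 difference thus rests on the immediate male. For Ccl7 the male was above both females immediately and at 14 days, and below both at 7 days. With the sex term the 1-day difference of Cxcl14 shrank as well, to 0.395 ± 0.27 (adjusted p = 0.643), and that of Cx3cl1 grew to 0.38 ± 0.13 (adjusted p = 0.249). For Cxcl1, which passed in neither fit, the sign turned at 1 day, from 0.17 ± 0.26 to -0.19 ± 0.33, and for Ccl3 from -0.04 ± 0.15 to 0.11 ± 0.20. For the rise from the immediate group to 1 day, Ccl12, Cxcl10 and Cxcl12 passed with the sex term too. For the fall to 7 days Ccl12 and Cxcl10 did. Over all probe sets the fit with the sex term called 2.81% in the first step and 1.85% in the second.

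**Figure D4:**
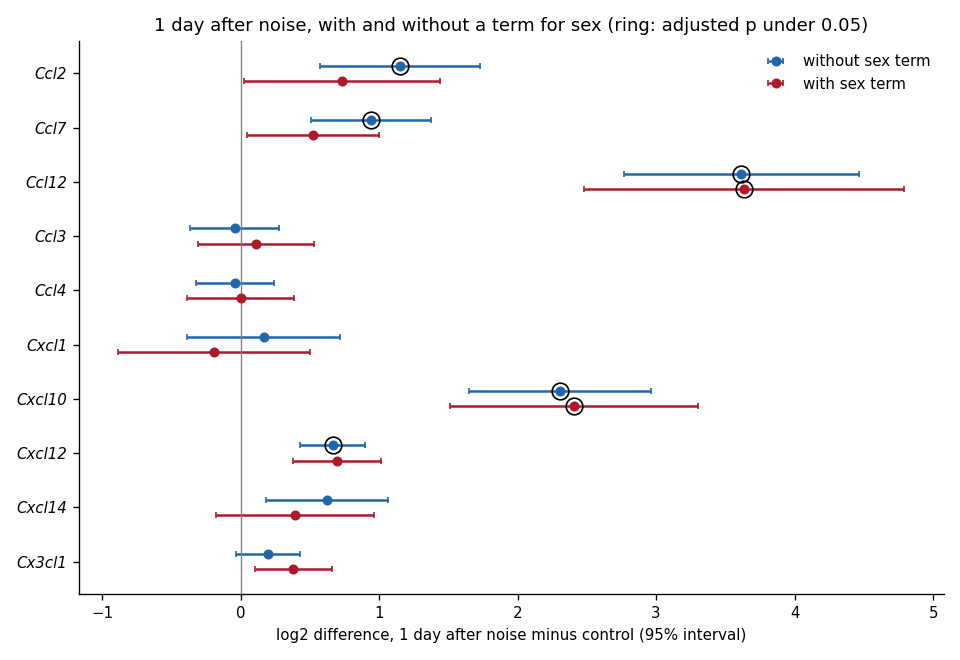
Difference between 1 day and control (log2, bars are 95% intervals from limma) for the main probe set of each chemokine, fitted by group alone and with sex as a term; rings mark adjusted p under 0.05. Ccl12 and Cxcl10 pass in both fits, and the values of Ccl2 (1.15 to 0.735) and Ccl7 (0.94 to 0.52) shrink with the sex term. That term is estimated from the other groups, with 1 male in each, and for Ccl2 it rests on the immediate male.

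The single male of the immediate group, replicate 3, lay more than 1 above both others for Ccl2, Ccl12 and Cxcl1. These were 3 of the 10 chemokines, beside 0.143% of all probe sets. With the female arrays alone, the immediate differences were 0.55 for Ccl2 (adjusted p = 0.274), 0.26 for Ccl7 (adjusted p = 0.650), 0.34 for Cxcl1 (adjusted p = 0.523) and 0.83 for Cxcl10 (adjusted p = 0.307). Neutrophil markers (7 of 8 measured) had list means of 5.72, 6.71 and 7.69 on the 3 immediate arrays and 5.42, 6.22 and 8.25 on the controls. Their part in these results was not tested. At 1 day replicate 1 lay more than 1 below both others of its group for Ccl12, 1 of the 10 chemokines, beside 0.0458% of all probe sets.

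Macrophage markers moved with the 1-day values. All 12 genes of that list were above background, 7 of 12 were higher at 1 day than in controls and 0 lower. Of all probe sets 0.838% were called higher at 1 day. Against control, 0 of 12 were called at the other times. Array means of the list were 8.20 to 8.32 at 1 day, 7.305 to 7.50 in controls and 7.23 to 7.44 immediately after noise. With the sex term 3 of the 12 passed at 1 day, beside 0.12% of all probe sets. In a bulk sample more cells of a type and more RNA per cell cannot be told apart, and the part of macrophage number in the chemokine values was not tested. Of 5 bone markers measured, 2 were lower at 1 day than in controls, Ibsp by -1.72 (adjusted p = 0.0484) and Dmp1 by -0.81 (adjusted p = 0.0368). Neither passed with the sex term, and Alpl differed by -0.01. Of all probe sets 1.5% were called in either direction. The median difference of the bone list from control was -0.81 at 1 day, -0.55 at 7 days and -0.68 at 14 days. From 1 day to 7 days 0 of 5 passed, nor did any against control at 7 or 14 days. Array means of the bone list were 7.65 to 8.02 at 1 day and 8.23, 8.17 and 9.21 in controls. Of the Schwann cell list Cnp was lower (-0.24, adjusted p = 0.0124) and of the neuron list Uchl1 was higher (0.53, adjusted p = 0.00452), each the only call of its list at that time. The part of the tissue dissected in the chemokine values was not tested. Markers of T and NK cells (4 of 5) and B cells (3 of 3) were near background in every group.

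The genes whose values over the 15 arrays were most like those of Ccl12 were Ctsc (Pearson r = 0.96), Ms4a6d (0.93) and Col16a1 (0.93). For Cxcl12 they were the macrophage markers C1qa (r = 0.95), Cd68 (0.94) and C1qc (0.94). For Cxcl10 they were Plekho1, Ccl12 itself and Ifi204 (each r = 0.90), the last near background. For Ccl2 they were Socs3 (r = 0.96), Ch25h (0.94) and Saa1 (0.94). These correlations describe arrays that share the time course, and no test is attached to them. Among the members Ccl2 went with Ccl7 (r = 0.92), and Ccl12 with Cxcl10 (r = 0.90) and Cxcl12 (r = 0.89). Ccl2 went less closely with Cxcl1 (r = 0.74), and Ccl12 and Cxcl1 correlated with r = 0.13.

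The median difference of 25 other chemokine ligands measured was 0.00 at 1 day, and 0.838% of all probe sets were called higher there. Of the 25 ligands, 3 were higher and 0 lower. They were Cxcl11, a further interferon-induced ligand of Cxcr3 (0.80 ± 0.14, adjusted p = 0.0110), Ccl11, the eosinophil attractant of the Ccl2 cluster (0.71 ± 0.17, adjusted p = 0.0464), and Ccl5 (0.53 ± 0.13, adjusted p = 0.0460). None of the 3 passed with the sex term (adjusted p from 0.108 to 0.180). From the immediate group to 1 day Cxcl11 rose by 1.07 and Ccl5 by 0.76, and both passed with the sex term too (adjusted p = 0.00667 and 0.00708). Ccl8 rose by 0.57 there and did not pass with it (adjusted p = 0.0879). From 1 day to 7 days Ccl5 fell by 0.69 and Cxcl11 by 0.61, and of these Ccl5 passed with the sex term (adjusted p = 0.0142). Ccl27a rose by 0.46 in that step (adjusted p = 0.0211) and did not pass with the sex term (adjusted p = 0.132). Immediately after noise 0 of 25 passed. At an unadjusted p under 0.05 stood 3 of 25, or 12%, beside 13.8% of all probe sets. In every group 8 of the 25 were near background.

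Of 21 receptors measured, 1 passed immediately after noise, where 0.661% of all probe sets were called: Ackr3, the scavenging receptor that takes up Cxcl12. It read 9.59, 9.59 and 9.51 in controls and 9.93, 9.95 and 10.27 in the immediate group, without overlap, a rise of 0.49 ± 0.09 (adjusted p = 0.0162, and 0.0273 with the sex term). At 1 day its difference was 0.33 ± 0.09 (adjusted p = 0.0706, and 0.549 with the sex term). From 1 day to 7 days it fell by 0.53 (adjusted p = 0.00262, and 0.0251 with the sex term). The receptors of the rising ligands did not pass at 1 day: Ccr2, which binds Ccl2, Ccl7 and Ccl12, differed by 0.01 ± 0.12, and Cxcr4, the receptor of Cxcl12, by -0.47 ± 0.28 (adjusted p = 0.509). Ccr2 ran from 5.54 to 5.93 over all 15 arrays, a range that overlaps that of the Sry probe set in females (5.04 to 5.73). Cxcr4 was near background at 1 day, at 4.59 or lower on each array, and above the line in the other groups. These values do not show that either receptor was expressed and unchanged. Cx3cr1, the receptor of Cx3cl1, differed by 0.37 ± 0.13 (adjusted p = 0.206). Cxcr3 was near background, as 10 of the 21 receptors were in every group.

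**Figure D5:**
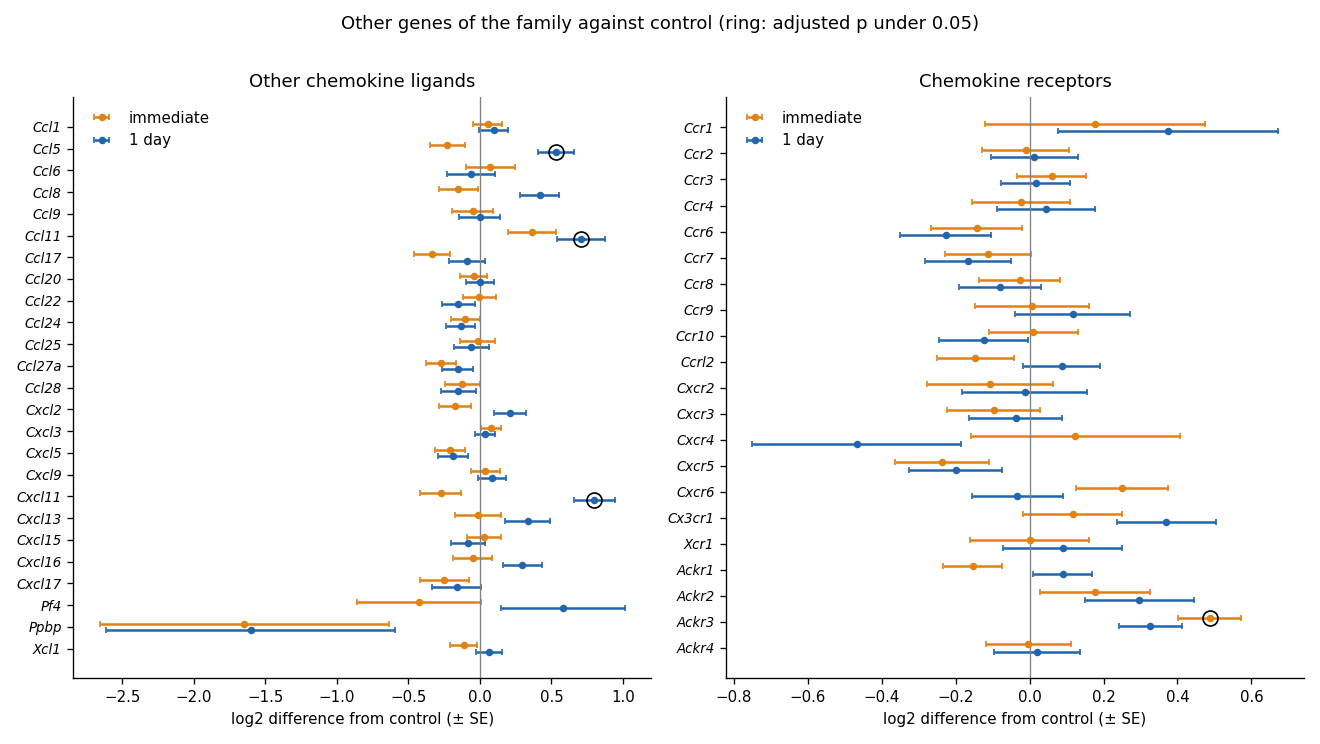
Difference from control (log2, with standard errors from limma) immediately and 1 day after noise for the 25 other ligands and the 21 receptors measured; rings mark adjusted p under 0.05. Rings fall on Ccl5, Ccl11 and Cxcl11 at 1 day and on Ackr3 immediately after noise, and the wide bars of Ppbp go with 1 control array that stands apart for it.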

How the data were processed

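RNA from 15 auditory-nerve samples was hybridised to Affymetrix arrays. The deposited values are on a log2 scale, from 2.06 to 14.63. The submitters' processing notes name Affymetrix Expression Console, RMA and MAS5, and the sources used here do not say which of RMA and MAS5 made these values. Values were used as deposited, without further normalization. At most 3.67% of the values of 2 arrays were identical.

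All 34945 probe sets with 1 annotated gene, with no filter on low values, were fitted by group with limma 3.58.1 in R 4.3.3 (lmFit, eBayes with a mean-variance trend) over 15 arrays. Tests were two-sided, and Benjamini-Hochberg adjustment ran over all probe sets within each of 7 contrasts. A call is an adjusted p under 0.05. The near-background line is the 25th percentile of gene means. The fit was checked on simulated data.

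The members, the marker and family lists and the alternatives were chosen with earlier results of these data known. Named genes were all members, the called genes of the family lists with the largest change against control, and the 3 genes most alike to each of the 4 members with the smallest F-test p. Other genes, such as Ccl8, single receptors and single markers, were chosen after their values were seen. Alternatives were sex as a term, other filters and normalization, other settings of limma, only the 2 groups compared, the replicate number as a block, and each array left out.

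Same-numbered arrays were checked for pairing by the correlation of their deviations from the group means. The mean correlation was 0.042 for same-numbered and -0.021 for different-numbered pairs, and the main fit took no pairing. Promoters came from RefSeq, and motif matches were exact.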

Additional observations from a re-analysis of the deposited data

Results flagged for a closer look

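The change against control differed between time points for 6 chemokines, by direct limma contrasts between consecutive times, each adjusted over all probe sets. From the immediate group to 1 day the differences were 3.22 for Ccl12, 1.50 for Cxcl10 and 0.63 for Cxcl12, where 2.15% of all probe sets were called higher. From 1 day to 7 days they were -1.13 for Ccl2, -0.87 for Ccl7, -3.25 for Ccl12, -2.04 for Cxcl10, -0.50 for Cxcl12 and -0.95 for Cxcl14. Of all probe sets 3.16% were called lower in that step. These values are those of the main probe sets, and no other probe set of Cxcl12 or Cxcl14 passed in either step. The 1-day arrays were all male and the controls all female, and the immediate and 7-day groups held both sexes. With sex as a term, the 3 rises still passed, and of the 6 falls those of Ccl12 and Cxcl10 did. In that fit 2.81% of all probe sets were called between the immediate group and 1 day, and 1.85% between 1 day and 7 days.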

How the results depend on the processing

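No called difference of the 10 chemokines changed sign in the alternatives run. Differences that were not called could, as for Cxcl1 (0.17 to -0.19) and Ccl3 (-0.04 to 0.11) at 1 day with sex as a term. Of the 10 chemokines, 5 were called at 1 day against control. That count was 2 with sex as a term, 1 with the lowest 50% of probe sets left out (which left 3 of the 10 in the fit) and 3 to 5 with each array left out. Of all probe sets 1.5% were called in the main fit and 0.12% with the sex term. The share was 3.6% with the lowest 50% left out and 0.366% to 1.95% with each array left out. For the rise from the immediate group to 1 day the count of chemokines was 3, 1 with the lowest 50% left out and 2 to 4 with each array left out. The share of all probe sets called was 4.91%, 11% and 1.57% to 5.75% in these fits, in the same order. For the fall to 7 days the count of chemokines was 6, with 2 under the sex term, 1 with the lowest 50% left out, 2 with array weights and 2 to 6 with each array left out. The share of all probe sets called was 5.62%, 1.85%, 12.3%, 3.25% and 1.58% to 5.83% in these fits, in the same order. The F test called 5 of the 10 chemokines and 5.13% of all probe sets in the main fit. Its count of chemokines was 2 under the sex term, 1 with the lowest 50% left out and 2 to 6 with each array left out. Immediately after noise the count was 0, and 1 (Ccl2) with array weights. Of all probe sets 0.661% were called there in the main fit and 2.53% with array weights. Cxcl14 at 1 day was called only when the 2 groups alone were fitted, and the dim probe set of Cxcl1 only without immediate replicate 2 (adjusted p = 0.0477). The causes were not tested.

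With the replicate number as a block, 5 of 10 chemokines and 1.98% of all probe sets were called at 1 day. The block changed the count of chemokines called in no contrast. Over 30 same-numbered pairs the correlation of deviations ran from -0.277 to 0.254, over 0.1 in 10 pairs, and 9 of 15 arrays correlated best with their own number. Female arrays alone could not be fitted for contrasts that include 1 day. Signal near background limits what can be read for Ccl3 and for the control level of Ccl2, Ccl7, Ccl12, Cxcl10 and the dim probe set of Cxcl1.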

Other observations

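Control replicate 3 lay more than 1 above both other controls for 94 probe sets, the most of the 15 arrays against their own groups. Its neutrophil list mean was 8.25, against 5.42 and 6.22 on the other controls, its bone list mean 9.21, against 8.23 and 8.17, and its fibroblast list mean 10.88, against 10.21 and 10.20. Platelet chemokines outside the 10 genes, chosen after their values were seen, stood apart there too. Pf4 read 9.21 there, against 6.61 and 6.90 on the other controls. Ppbp read 8.68, against 2.76 and 2.94. With control replicate 3 left out, 3 of the 10 chemokines were called at 1 day (Ccl12, Cxcl10 and Cxcl12). Ccl2 and Ccl7 lost their calls without either of the other controls too. Of all probe sets 0.438% were called at 1 day without replicate 3, 0.838% without replicate 1 and 0.758% without replicate 2. On control replicate 3 none of the 10 chemokines lay more than 1 above or below both other controls.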
